A study of Homo sapiens with 2 samples.

Results

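The genes described here are those of the ribosomal proteins, the protein parts of the ribosomes that work in the cytosol and of those that work inside mitochondria. Members were taken by symbol: RPL or RPS followed by digits, with RPLP0, RPLP1, RPLP2 and RPSA but without the RPS6K kinases, for the cytosolic set, and MRPL or MRPS followed by digits for the mitochondrial set. Of the 10750 named genes with a value on at least 1 array, 109 were members. They comprised 40 cytosolic genes with 47 probes and 69 mitochondrial genes with 75 probes.

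The values come from 2 arrays of 2 colours each, which asked how gene expression in cultured human mesothelioma cells differs when CD26, the cell surface peptidase encoded by DPP4, is lowered or raised. On the depletion array, ACC-MESO1 cells in which CD26 was depleted were hybridised together with control ACC-MESO1 cells. The depleting agent is called an shRNA in one label and an siRNA in another. On the transfection array, MSTO-211H cells that received CD26 on the plasmid pLNCX2 were hybridised together with control MSTO-211H cells. Both are established mesothelioma cell lines. No source used here says what the control cells received or whether the transfected cells were a pool or a single clone. Each deposited value is a log2 ratio of manipulated over control cells, so it shows no level, and the identity of the lines could not be checked against markers. With 1 array per comparison no value has a replicate, and neither a test nor a p-value can be given. On both arrays Cy3 carried the manipulated cells and Cy5 the control, so a dye effect of a probe and an effect of the manipulation cannot be told apart.

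DPP4 had a log2 ratio of -3.92 in CD26-depleted ACC-MESO1 cells and 5.51 in CD26-transfected MSTO-211H cells, the directions that the labels give. The median over all named genes was 0.012 on the depletion array (10347 genes) and 0.0072 on the transfection array (9359 genes). The only repeat measurement was between different probes of a gene. The pooled SD between such probes was 0.42 on the depletion array over 566 genes and 0.45 on the transfection array over 471 genes. This SD holds differences between the probes themselves and no repeat of a probe. Values of single genes closer together than that are not separable here, and a wider gap does not by itself show a difference. A log2 ratio of 0.5 in size, which is 1.41-fold, was used to count members as lower or higher.

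A cytosolic ribosome joins a small 40S and a large 60S subunit, each built from ribosomal RNA and many proteins encoded in the nucleus. Messenger RNAs of cytosolic ribosomal proteins typically begin with a C followed by a run of pyrimidines, the 5' terminal oligopyrimidine or TOP motif, through which the kinase complex mTORC1 and the RNA-binding protein LARP1 control their translation and stability together. Mitochondrial ribosomes descend from those of bacteria and translate the few proteins encoded by mitochondrial DNA, all of them parts of the respiratory chain and ATP synthase. Their proteins are also encoded in the nucleus and imported, and their messages do not belong to the TOP class.

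The annotated starts of the genes show this difference, and sequences from the ends of both sets are given for that reason. Each is the 30-base stretch of GRCh38.p14 from RefSeq that runs from 15 bases before the annotated start through the first 15 transcribed bases, read 5' to 3' on the gene's strand. Capitals mark the unbroken run of C and T that begins at the start, where that run opens with a C and at least 4 more pyrimidines follow. The first 10 are standard cytosolic ribosomal proteins, ordered from the lowest mean log2 ratio of the 2 arrays to the highest: the low end of that order, then RPLP2 as the remaining stalk protein, and the 3 genes at the high end. RPL7 and RPL37, which fall between RPLP1 and RPS10, are named only.
RPLP0 (chr12:120201097-120201126, minus strand): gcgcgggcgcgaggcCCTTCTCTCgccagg
RPLP1 (chr15:69452803-69452832, plus strand): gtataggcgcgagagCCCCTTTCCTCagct
RPS10 (chr6:34426055-34426084, minus strand): ccgcgcatgctccttCCTTTCCagccccgg
RPL9 (chr4:39458908-39458937, minus strand): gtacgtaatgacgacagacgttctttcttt
RPL17 (chr18:49492451-49492480, minus strand): cctctttccctaagcagcctgaggtgagtg
RPS12 (chr6:132814554-132814583, plus strand): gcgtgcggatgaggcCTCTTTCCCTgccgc
RPLP2 (chr11:809952-809981, plus strand): ttgcgtcggcgccttCCTTTTCCTCCCTgt
RPS19 (chr19:41860240-41860269, plus strand): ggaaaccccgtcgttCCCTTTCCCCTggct
RPL34 (chr4:108620561-108620590, plus strand): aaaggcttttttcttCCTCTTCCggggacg
RPS4Y1 (chrY:2841587-2841616, plus strand): ggaaaagaacagattCTCTTCCgtcgcaga
The mitochondrial genes shown beside them are the 2 lowest and 2 highest of their set on the depletion array. Of these, MRPL17 was also near the high end on the transfection array, MRPL30 was high there, and MRPS34 (-0.060) and MRPS17 (0.017) were near 0.
MRPS34 (chr16:1773120-1773149, minus strand): cggccggaccgctgaggacgcggacccgcc
MRPL30 (chr2:99181169-99181198, plus strand): tgagtgtagcacttggtagttcttcctctg
MRPL17 (chr11:6683326-6683355, minus strand): ccggctctaccttccagtttccagttccgg
MRPS17 (chr7:55951862-55951891, plus strand): gtacggcgtgacgccatcccgctgcgaccg
The pyrimidine run opens 8 of the 10 cytosolic genes printed, with low and high ratios alike, and is missing at the annotated starts of RPL9 and RPL17. RPS19 and RPL34 each have another annotated start, not printed, at which the run is also missing. None of the 4 mitochondrial genes printed has it.

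Among the cytosolic genes of the standard set of human ribosomal proteins, 29 of 33 had an entry in the RefSeq promoter table, and 24 of these (82.8%) had such a run at an annotated start. The share was 9.68% among mitochondrial genes, 6 of 62, against 6.83% among the named genes of the arrays with an entry (n = 8637 genes) and 5.14% among all 27305 genes of the table. The run was searched on the gene's own strand at the exact annotated start, and starts differ between annotations. A gene with several annotated starts was counted if any of them had the run. In the 300 bases from 250 before the start to 50 after it, searched on both strands, CCGGAAG, a core of the sites of ETS factors such as GABPA, was present in 31.0% of standard cytosolic genes and 41.9% of mitochondrial genes, against 18.2% of the named genes of the arrays and 12.2% of all genes. AAGATGGC, a core of YY1 sites, was present in 10.3% and 30.6%, against 5.62% and 3.52% in the same order. CACGTG, the E-box that MYC can bind, was present in 6.90% and 12.9%, against 12.0% and 8.77%, and TATAAA in 10.3% and 3.23%, against 11.4% and 14.0%. These are matches of letters, not measured binding. None of these strings contains another, although the A and G bases at the ends of the first pair allow those to overlap.

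Cytosolic ribosomal protein genes lay below the middle of both arrays, and mitochondrial ribosomal protein genes lay near it. In CD26-depleted ACC-MESO1 cells the cytosolic median log2 ratio was -0.31 (quartiles -0.53 and -0.081, n = 40 genes), and the mitochondrial median was -0.038 (quartiles -0.21 and 0.088, n = 69 genes). In CD26-transfected MSTO-211H cells the cytosolic median was -0.22 (quartiles -0.49 and 0.031, n = 39 genes) and the mitochondrial median was 0.054 (quartiles -0.081 and 0.18, n = 69 genes). The cytosolic median was thus lower than the mitochondrial median by nearly the same amount on both arrays, with differences of -0.27 and -0.27. The ranges of the sets overlapped on both arrays. The probes' names fall into 3 series, H2, H3 and opHsV04, over which the sets are unevenly spread, and the contrast was not alike in all of them. Among H2 probes, which hold 46 of the 75 mitochondrial probes, the cytosolic median was -0.20 (n = 10 probes) after depletion and 0.027 (n = 9 probes) after transfection, and the mitochondrial median was -0.025 and 0.063. The H2 difference between the sets was thus -0.17 in depleted cells, and in transfected cells it was -0.036. Of those cytosolic H2 probes, 4 and 3 belong to paralogs or a pseudogene, and the 6 of standard proteins had medians of -0.056 and -0.17. Among H3 probes the cytosolic and mitochondrial medians were -0.31 and -0.050 after depletion and -0.30 and 0.073 after transfection (n = 25 probes each). Among opHsV04 probes they were -0.35 and -0.18 after depletion and -0.27 and -0.048 after transfection (n = 12 cytosolic and 4 mitochondrial probes).

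**Figure D1:**
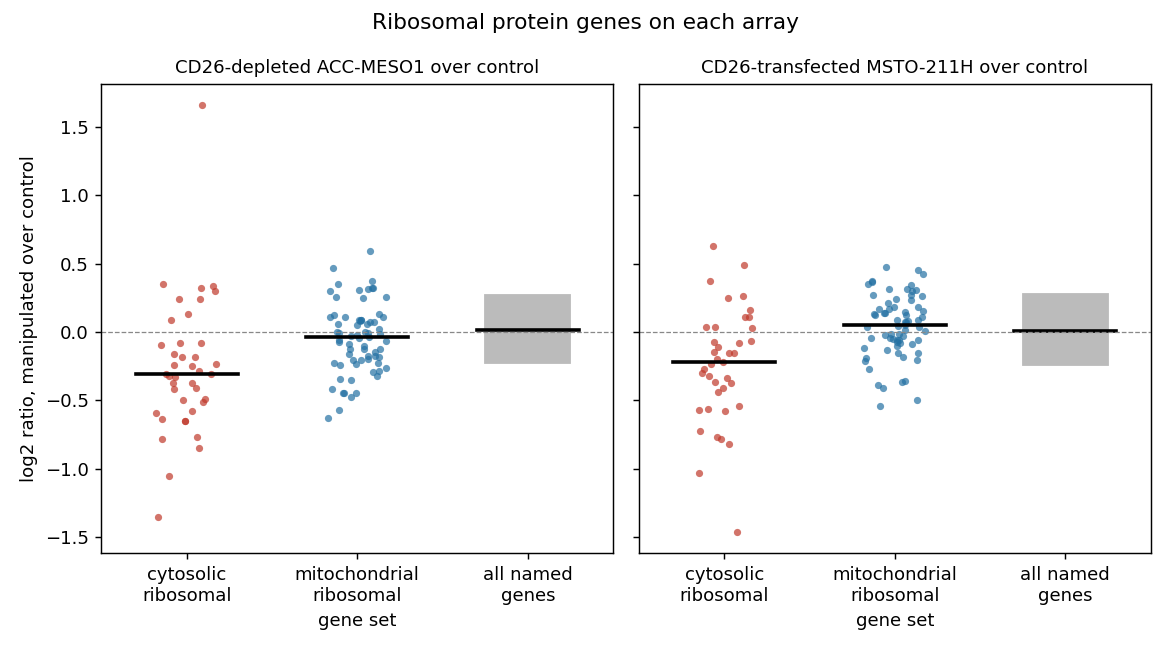
Log2 ratios of manipulated over control cells for the cytosolic and mitochondrial ribosomal protein genes on each array, 1 point per gene, with a bar at each median. The grey box spans the quartiles of all named genes. Cytosolic medians are -0.31 and -0.22, mitochondrial medians -0.038 and 0.054, and the cytosolic points spread wider.

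Counts past the threshold showed the same contrast. In CD26-depleted cells 11 of 40 cytosolic genes and 2 of 69 mitochondrial genes were at or below -0.5, against 9.8% of all named genes. In CD26-transfected cells the counts were 10 of 39 and 2 of 69, against 9.4% of all named genes. As shares, 27.5% and 25.6% of the cytosolic genes were past the threshold downward on the 2 arrays, and 2.90% of the mitochondrial genes on each. At or above 0.5 there was 1 cytosolic gene on each array and 1 mitochondrial gene, on the depletion array, where 12.8% and 13.1% of all genes lay. The mitochondrial genes were closely spaced, and their SD over genes was 0.25 and 0.23, against 0.48 and 0.50 over all named genes. A ratio below 0 was found in 31 of 40 cytosolic genes after depletion (48.7% of all genes) and in 28 of 39 after transfection (49.3% of all genes). The corresponding mitochondrial numbers were 40 and 29 of 69.

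RPLP0 and RPLP1 of the P stalk were among the 3 lowest cytosolic members on both arrays. This arm of the large subunit recruits and activates the elongation factors that have GTPase activity, and consists of RPLP0 at the base with the acidic proteins RPLP1 and RPLP2 bound to it. RPLP0 had log2 ratios of -1.36 in CD26-depleted cells and -1.46 in CD26-transfected cells, or 2.56-fold and 2.76-fold lower than control. It ranked 41st from the bottom of 10347 genes on the depletion array and 28th of 9359 genes after transfection. At or below -1 on both arrays it was joined by no other member, and 0.0558% of the 8956 genes measured on both arrays lay there. RPLP1 had -0.85 and -1.03, 1.80-fold and 2.04-fold lower. RPLP2 differed from its partners, with 0.24 and -0.27. Each of the 3 genes rested on a single probe.

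Other proteins of the large subunit followed below the stalk. RPL7 had log2 ratios of -0.65 in depleted and -0.78 in transfected cells, and RPL37 had -0.59 and -0.82. RPL17, which lines the tunnel through which the new chain leaves, had -0.65 and -0.57. RPL3, which reaches to the peptidyl transferase centre, had -0.57 and -0.54, and RPL9 had -0.51 and -0.77. These 5 genes were past the threshold on both arrays. RPL13A, also known for silencing of specific messages in interferon-treated myeloid cells, passed it on the depletion array alone (-0.64 and -0.36). RPL6 passed it on the transfection array alone (-0.38 and -0.72).

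Several large subunit proteins with well-described places in the ribosome were moderately low. RPL14 (-0.497 and -0.41), RPL35A (-0.41 and -0.22), RPL35 at the tunnel exit (-0.37 and -0.32), RPL4 of the tunnel wall (-0.33 and -0.37) and RPL18 (-0.31 and -0.34) did not pass the threshold on either array. RPL12, which sits at the base of the stalk, had -0.49 after depletion and -0.11 after transfection. RPL5, which carries 5S ribosomal RNA and can bind the p53 ligase MDM2, had -0.31 and -0.15. RPL36 had -0.28 and -0.15. RPL10, which is added last to the large subunit, had -0.094 and -0.20. RPL34 (0.32 and 0.26) and RPL28 (0.13 and 0.027) were the standard large subunit members above 0 on both arrays. RPL22 (-0.077 and 0.16), RPL29 (-0.18 and 0.11) and RPL13 (-0.25 and 0.034) had opposite signs.

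Among small subunit proteins, RPS10, which lies at the entry of the messenger RNA channel, was past the threshold on both arrays (-0.78 and -0.57). RPS12 had -0.77 in depleted cells and -0.44 in transfected cells. RPS2, which also borders the entry channel, was 2.07-fold lower after depletion (-1.05) and near 0 after transfection (-0.075). That gap of its single probe between the arrays was the largest of any standard member with a negative ratio on both. RPS9 (-0.32 and -0.23) and RPS3 (-0.24 and -0.063) were closer to the median of all genes. RPS27 had -0.19 and 0.039. RPS19, the gene most often mutated in the inherited anaemia Diamond-Blackfan anaemia, had 0.33 and -0.15. Over the standard members, the large subunit had medians of -0.37 and -0.32 (n = 25 genes) and the small subunit -0.28 and -0.19 (n = 8 genes). The subunit medians thus differed by -0.090 and -0.13, and the genes of the subunits overlapped on both arrays.

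The Y-linked gene RPS4Y1 was the exception. Its log2 ratio was 1.66 in CD26-depleted ACC-MESO1 cells, 3.17-fold higher than control, and -0.56 in CD26-transfected MSTO-211H cells. It was the highest member on the depletion array by a wide margin, the next being RPL26L1 at 0.35, and the 1 cytosolic gene at least 0.5 in size with opposite signs (2.4% of all genes). RPS4Y2, a close paralog on the same chromosome, had 0.24 and -0.30, the same signs at a smaller size. Each of these genes rested on 1 probe, and whether a probe also bound the message of the other gene was not tested. The X-linked copy RPS4X was not analysed here. Without RPS4Y1, the 32 standard cytosolic genes had medians of -0.35 and -0.25.

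**Figure D2:**
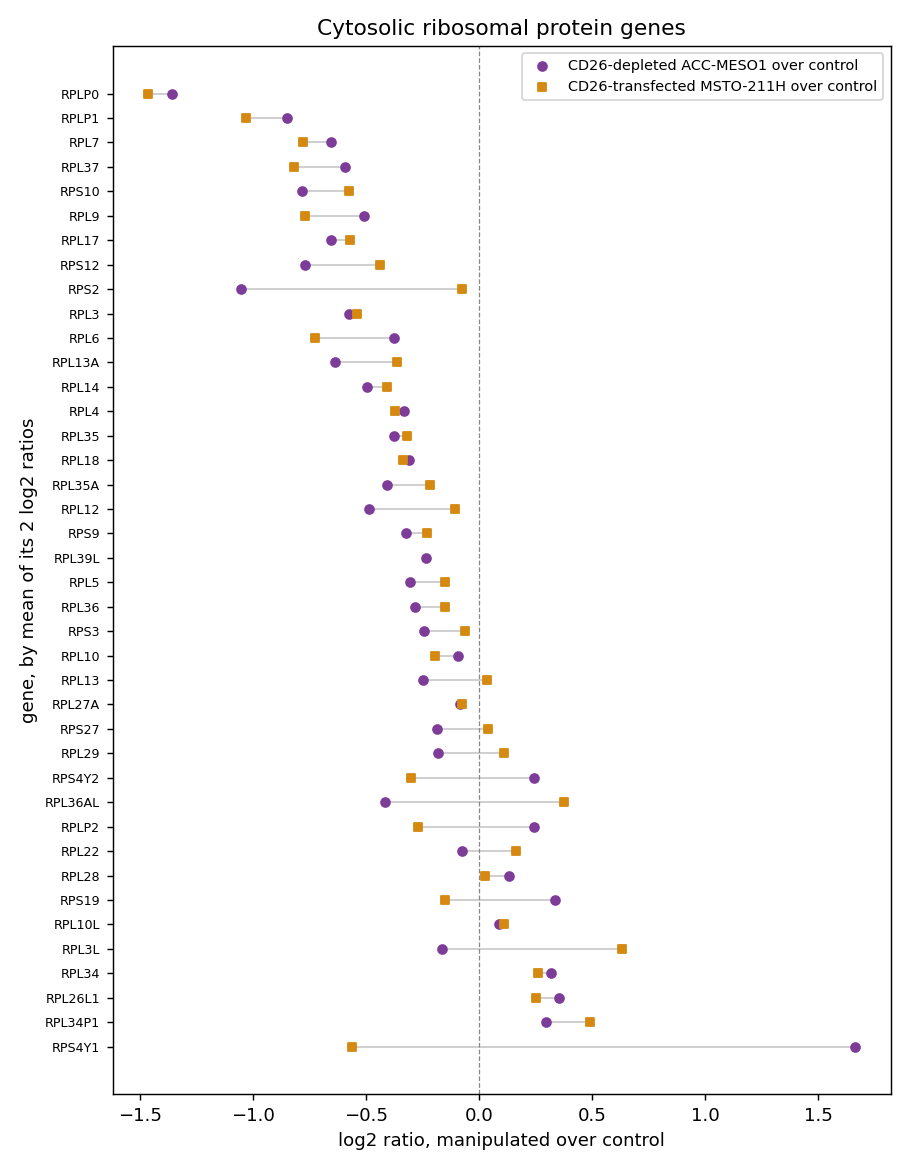
Log2 ratio of every cytosolic ribosomal protein gene on the depletion array (circles) and the transfection array (squares), ordered from the lowest mean of both at the top. RPLP0 is lowest on both arrays, RPLP1 is among the 3 lowest on both, RPS2 lies between them on the depletion array and near 0 on the other, and RPS4Y1 lies at 1.66 and -0.56; RPL39L has a value on the depletion array alone.

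Members of the cytosolic set that are not standard ribosomal proteins stood higher. They were 6 paralogs and 1 pseudogene, with medians of 0.090 after depletion (n = 7 genes) and 0.31 after transfection (n = 6 genes). With so few genes their count at or below -0.5, 0 on each array, says little beside 9.8% and 9.4% of all genes. At or above 0.5 there was 1 of them, after transfection, where 13.1% of all genes lay. RPL3L, a muscle paralog of RPL3, had -0.16 and 0.63, and its counterpart RPL3 had -0.57 and -0.54. RPL36AL had -0.42 and 0.37. RPL26L1 had 0.35 and 0.25, and the testis paralog RPL10L had 0.090 and 0.11, where RPL10 had -0.094 and -0.20. RPL39L had -0.24 after depletion and no value after transfection. The pseudogene RPL34P1 (0.30 and 0.49) was on the same side of 0 as its parent gene RPL34 on both arrays. Ribosomal protein genes have many processed pseudogenes, probe sequences were not used here, and whether such a probe also bound the parent message was not tested.

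The cytosolic genes kept much of their order between the arrays, and the mitochondrial genes did not. Of the 39 cytosolic genes measured on both, 24 were below 0 on both arrays (61.5%, against 26.5% of all genes) and 5 were above 0 on both (26.6% of all genes). Both values were at or below -0.5 for 8 of them (20.5%, against 1.08% of all genes), namely RPLP0, RPLP1, RPL7, RPL37, RPL9, RPL17, RPL3 and RPS10. None of the 39 was at or above 0.5 on both (2.19% of all genes). Among the 69 mitochondrial genes, 19 were below 0 on both arrays and 19 above 0 on both, and 0 were past 0.5 on both in either direction. Across genes, Pearson's r between the arrays was 0.45 over the 39 cytosolic genes and 0.68 without RPS4Y1. It was 0.56 when RPLP0 and RPLP1 were left out as well. Over the 69 mitochondrial genes it was 0.0019, and over all 8956 genes 0.063. The points of each correlation share the probe and the dye orientation, and genes are not independent replicates.

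**Figure D3:**
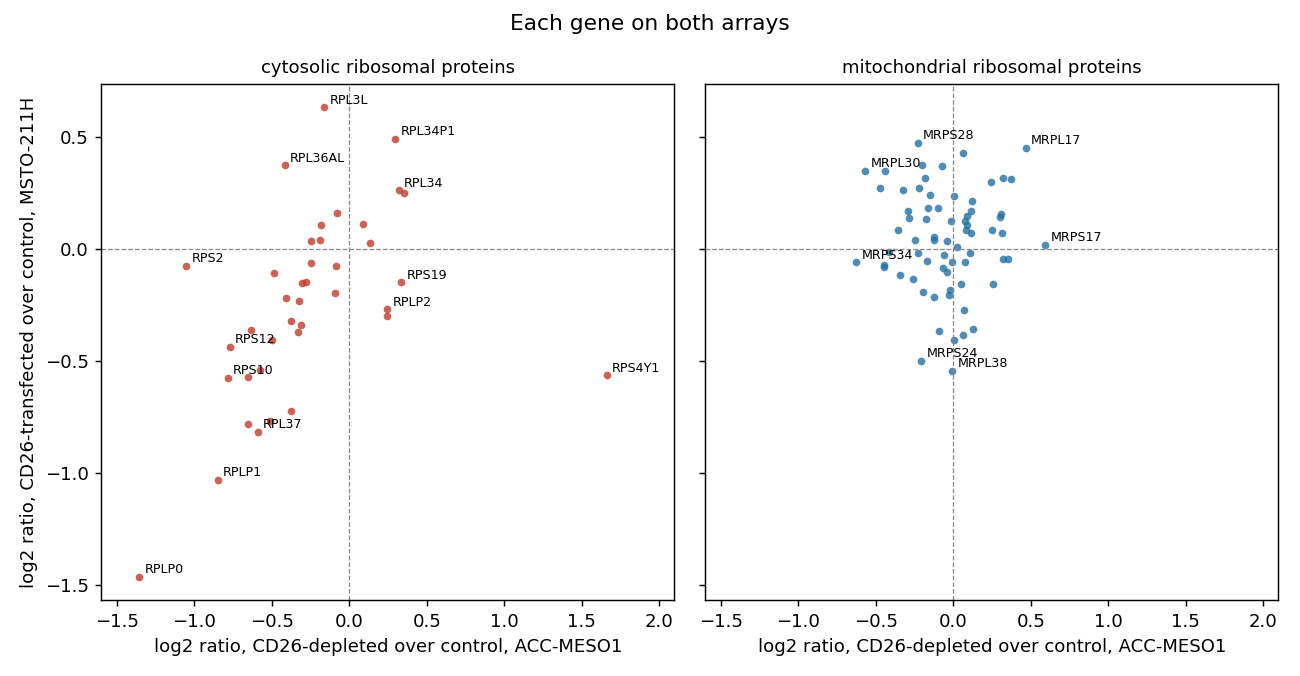
Each ribosomal protein gene by its log2 ratio after depletion (horizontal axis) and after transfection (vertical axis), cytosolic genes left and mitochondrial genes right. Cytosolic genes stretch along a line through RPLP0, RPLP1 and RPL34 with RPS4Y1 far from it, and mitochondrial genes form a cloud around 0 with r of 0.0019.

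Genes with several probes show how far a probe itself sets the value. The pair for RPL13 lay at 0.20 and -0.69 after depletion and at 0.53 and -0.46 after transfection, with the same probe higher both times. RPL6 had probes at -0.059 and -0.69 after depletion and -0.46 and -0.99 after transfection. RPL9 had -0.24 and -0.78, then -0.62 and -0.92, and RPL27A had 0.12 and -0.28, then 0.12 and -0.28. In all 7 cytosolic genes with 2 probes, which also include RPL10, RPL29 and RPS27, the probe that was higher on the depletion array was also higher on the transfection array. The same held for 215 of the 383 genes with 2 probes in the whole table, or 56.1%. Over the 7 cytosolic genes the median gap between the higher and the lower probe was 0.40 on the depletion array and 0.30 on the other, which is as large as the cytosolic medians themselves or larger. Over the 383 genes the probe higher after depletion lay above the other by a median of 0.30 there and 0.057 after transfection. For the mitochondrial genes with 2 probes, MRPL23 and MRPL53, the order of the probes was opposite on the 2 arrays. MRPL43 had 3 probes, at 0.10, -0.0019 and -0.30 after depletion and, in the same order, 0.36, -0.40 and -0.22 after transfection. The part of this probe pattern in the agreement between the arrays was not tested beyond these genes.

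Mitochondrial ribosomal proteins spread on both sides of 0. In CD26-depleted cells the lowest were MRPS34 (-0.63) and MRPL30 (-0.57), both past the threshold, followed by MRPL19 (-0.48), MRPL2 (-0.45), MRPL22 (-0.45), MRPL24 (-0.44), MRPL49 (-0.42) and MRPL28 (-0.35). The highest were MRPS17 (0.59), MRPL17 (0.47), MRPL33 (0.37), MRPL32 (0.35), MRPS6 (0.32), MRPL15 (0.32), MRPS18B (0.32) and MRPS35 (0.31). None reached 2-fold on this array, where 1.56% of all genes were at or below -1 and 3.31% at or above 1.

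In CD26-transfected cells other mitochondrial genes held the low end. MRPL38 was lowest (-0.54), but its 3 probes lay at -0.94, -0.81 and 0.12. MRPS24, the counterpart of cytosolic RPS3, had -0.50, MRPL4 had -0.41, MRPL10 -0.39, MRPS18C -0.37, MRPS10 -0.36, MRPS31 -0.27 and MRPL3 -0.22. The highest were MRPS28 (0.47), MRPL17 (0.45), MRPL50 (0.43), MRPL13 (0.38), MRPS5 (0.37), MRPL30 (0.35), MRPL24 (0.35) and MRPL15 (0.32). None reached 2-fold here either, against 1.37% of all genes at or below -1 and 4.09% at or above 1. MRPL17 and MRPL15 were among the 8 highest on both arrays, and no gene was among the 8 lowest on both. MRPL30 and MRPL24 were among the 8 lowest after depletion and the 8 highest after transfection.

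The mitochondrial subunits were compared next. Members were placed by symbol, except that MRPS18A was counted with the large subunit because that protein sits there. The places of the other members were not checked, among them MRPS30 (0.085 and 0.083), counted as small by its symbol. The large subunit so counted had medians of -0.083 after depletion and 0.12 after transfection (n = 44 genes). The small subunit had -0.020 and -0.046 (n = 25 genes). After transfection 15 of 44 large subunit genes and 14 of 25 small subunit genes were below 0, against 49.3% of all genes. A list of proteins with a bacterial homologue had medians of -0.028 and 0.040 (n = 40 genes). The members not on that list had -0.044 and 0.073 (n = 29 genes), most of them particular to mitochondria, although MRPS18A and MRPS18B are of the bacterial S18 family and MRPL58 is related to release factors. MRPL12, which also binds the mitochondrial RNA polymerase, had -0.32 and 0.26. MRPL58, which frees stalled chains and was listed under its older symbol ICT1, had 0.11 and 0.072. MRPL57, listed as MRP63, had -0.22 and 0.27. The probe listed as MRPS36, now KGD4, matched by its listed symbol alone and was left out of the set, with values of -0.31 and 0.18.

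Cytosolic and mitochondrial ribosomes share families of homologous proteins, so the sets could be compared within a family. Of 27 such pairs, 12 had both genes measured. The cytosolic gene was lower than its mitochondrial counterpart in 11 of 12 pairs after depletion and in 10 of 12 after transfection, and in 9 on both. The median difference, cytosolic minus mitochondrial, was -0.37 after depletion and -0.36 after transfection. The genes of the pairs belong to the sets described above, whose medians already differ in this direction. The same share over unmatched pairs was not computed, so the counts do not show more than the set medians do. The widest pair was RPLP0 with MRPL10, the stalk base of each ribosome, at differences of -1.42 and -1.08, and no other pair was 0.75 or more apart on both arrays. RPS2 and MRPS5 differed by -0.98 and -0.44, and RPL7 and MRPL30 by -0.084 and -1.13. RPL13A and MRPL13 differed by -0.43 and -0.74. The pairs in which the cytosolic gene was higher were RPL10 with MRPL16 after depletion (0.033), and RPL4 with MRPL4 (0.037) and RPS3 with MRPS24 (0.44) after transfection.

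**Figure D4:**
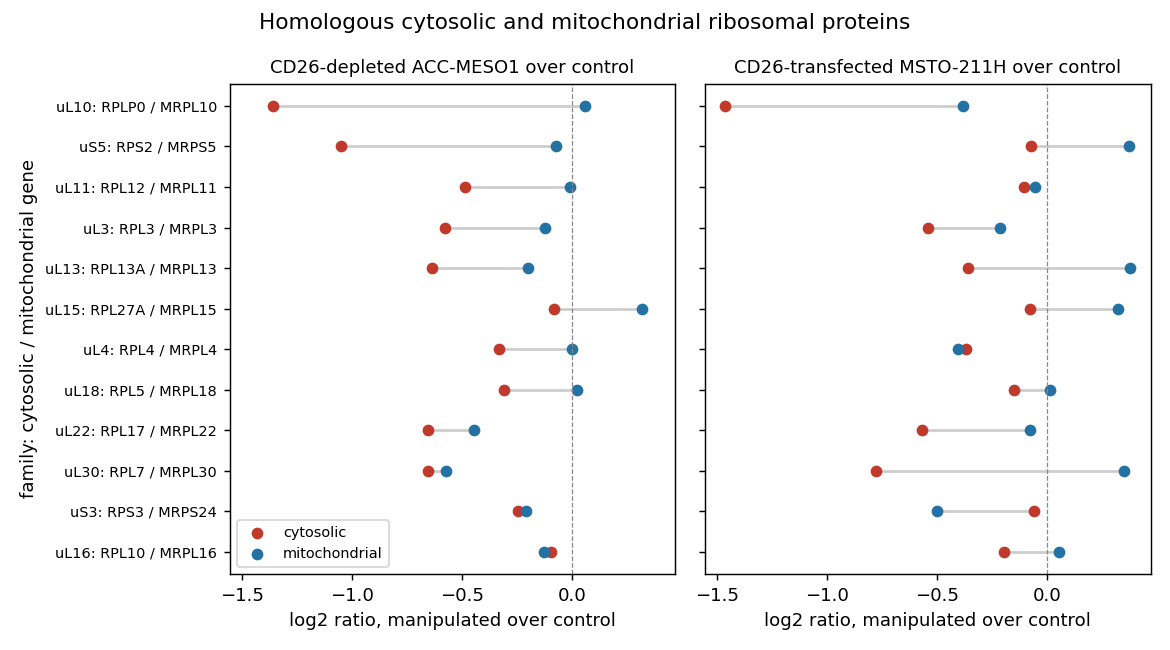
Log2 ratios of 12 homologous pairs, with the cytosolic gene in red and the mitochondrial gene in blue, 1 panel per array. The red point lies left of the blue one in 11 pairs after depletion and in 10 after transfection.

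Related gene lists did not share the low position of the cytosolic ribosomal proteins on both arrays. Other messages of elongation factors and of the TOP class had medians of -0.15 in depleted and 0.16 in transfected cells (n = 15 genes), and 12 and 6 of them were below 0, against 48.7% and 49.3% of all genes. At or below -0.5 were 3 and 1 of them, against 9.8% and 9.4% of all genes. PABPC1, the poly(A)-binding protein, was lowest after depletion (-1.55) and had 0.30 after transfection. The nucleolar chaperone NPM1 had -0.86 and -0.12, and CCNG1 had -0.84 and 0.37. The elongation factor EEF2 had -0.49 and 0.32. TPT1, a TOP message of very high abundance in many cells, had -0.15 and -0.98. More broadly, named genes outside both sets that open with the pyrimidine run had medians of 0.0094 (n = 547 genes) and -0.00068 (n = 507 genes), next to 0.014 and 0.0078 for those that do not. Within the standard cytosolic genes, the 24 with the run had medians of -0.26 and -0.21. The 5 without it, RPL3, RPL4, RPL6, RPL9 and RPL17, had medians of -0.51 and -0.57 and were below 0 on both arrays. The run was sought only at the exact annotated start, and in RPL17 a stretch of pyrimidines lies shortly before it. A missing run therefore does not show that a message lacks the TOP motif, and whether the motif goes with the ratio was not tested.

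Genes that build the cytosolic ribosome lay on the other side of 0 from its proteins. Their list had medians of 0.15 after depletion and 0.13 after transfection (n = 37 genes), with 9 and 13 members below 0, against 48.7% and 49.3% of all genes. At or above 0.5 were 2 members after depletion and 3 after transfection, against 12.8% and 13.1% of all genes. After depletion they were NOP56, a core protein of the snoRNA particles that methylate ribosomal RNA (0.74 and 0.15), and the kinase RIOK1 of 40S maturation (0.57 and -0.46). After transfection they were NOP10 (0.61), NOLC1 (0.60) and RRP1B (0.57). At or below -0.5 were NHP2 (-0.62) and WDR12 (-0.51) after depletion and SBDS, which helps to release EIF6 from new 60S subunits, after transfection (-0.65). These were 2 and 1 of the 37 members, against 9.8% and 9.4% of all genes. RNA polymerase I genes had medians of 0.17 and -0.10 (n = 9 genes), with the transcription factor UBTF low on both arrays (-0.52 and -0.80). The subunit POLR1A had -0.18 after depletion and -0.68 after transfection. The subunit POLR1B lay at 0.4998, just under the threshold, after depletion and at 0.64 after transfection. The subunit POLR1C had 0.58 and 0.14, and TAF1B had 0.26 and 0.57. At or below -0.5 were 1 and 2 of the 9, against 9.8% and 9.4% of all genes. At or above 0.5 were 1 and 2, against 12.8% and 13.1%.

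Translation initiation factors had medians of 0.023 and 0.11 (n = 28 genes). EIF5 was high on both arrays (0.99 and 0.60), and EIF2S1 had -0.23 and 0.85. EIF6, which keeps 60S subunits from joining 40S too early, had 0.53 and 0.068. EIF5B was lowest after depletion (-0.45 and 0.31), and EIF3B was lowest after transfection (0.12 and -0.53). At or above 0.5 were 2 and 3 of the 28 genes, against 12.8% and 13.1% of all genes. At or below -0.5 were 0 and 1, against 9.8% and 9.4%. In the list of MYC and mTORC1 genes, with medians of -0.044 (n = 12 genes) and -0.021 (n = 10 genes), MYC had 0.90 and 0.41. The S6 kinase gene RPS6KB1 had -0.44 and 0.93. RHEB, which activates mTORC1, had 0.41 and -0.61, and TSC2, which restrains RHEB, had -0.37 and -0.55.

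Mitochondrial lists stayed close to the mitochondrial ribosomal proteins. Translation factors and assembly proteins had medians of -0.015 (n = 25 genes) and 0.14 (n = 24 genes). Of these SLIRP (-0.82), GFM2 (-0.75), TFB1M (-0.54) and OXA1L (-0.54) were at or below -0.5 after depletion, and MTIF2 (0.57) and YBEY (0.50) at or above 0.5 after transfection. The first were 4 of 25 genes, against 9.8% of all genes, and the second 2 of 24, against 13.1%. Genes of mitochondrial transcription and import had medians of -0.10 and 0.092 (n = 16 genes). PPARGC1A, a coactivator of mitochondrial genes, was past 2-fold after transfection (1.44), next to 0.21 after depletion. NRF1 had -0.31 and 1.00, and GABPA had -0.96 and 0.32.

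**Figure D5:**
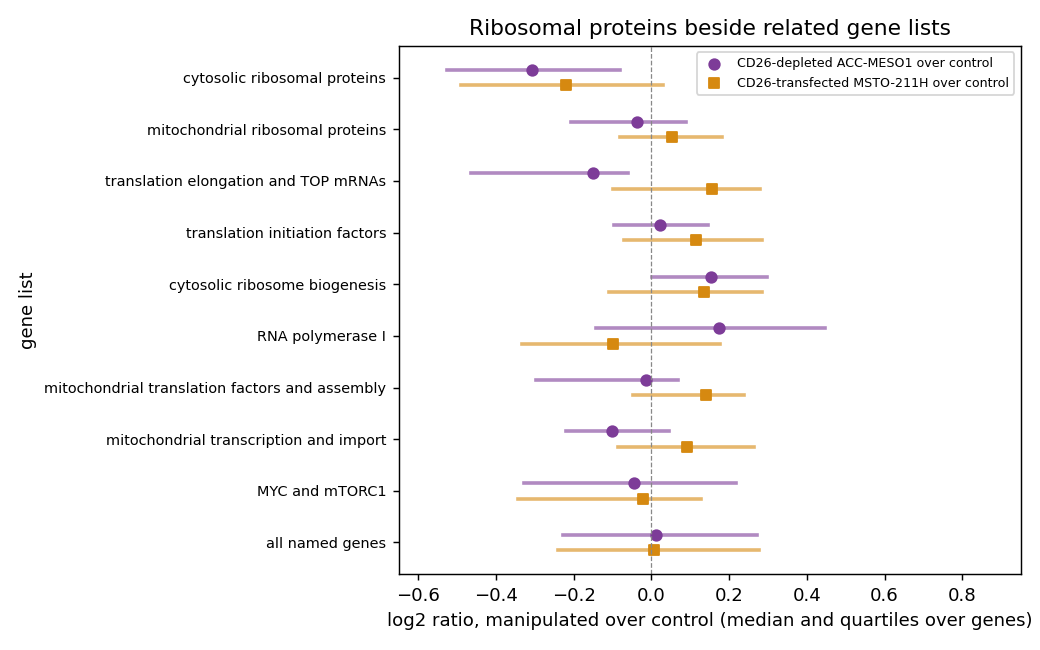
Medians (points) and quartiles (lines) of log2 ratios over the genes of each list on the depletion array (circles) and the transfection array (squares). The cytosolic ribosomal proteins lie lowest on both arrays, at -0.31 and -0.22, and ribosome biogenesis genes lie above 0 on both, at 0.15 and 0.13.

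Lists of cytosolic members that the design fixed by function were small here. The 7 measured genes of Diamond-Blackfan anaemia had medians of -0.31 and -0.22, with RPS10 lowest and RPS19 highest after depletion. The 3 measured MDM2-binding proteins RPL5, RPS3 and RPS27 had medians of -0.24 and -0.063. The 12 measured large subunit proteins shared with bacteria were all below 0 on both arrays, with medians of -0.50 and -0.37. Below 0 on both were 61.5% of the cytosolic genes, of which these are a part, and 26.5% of all genes. The 3 measured small subunit ones, RPS2, RPS3 and RPS9, were also below 0, with medians of -0.32 and -0.075. Of 78 standard cytosolic genes, 45 had no named probe in this table, so the set describes part of the ribosome.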

How the data were processed

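The authors deposited a normalized log2 ratio per probe, manipulated over control, as stated per the labels' sample descriptions. Sources used here do not name the background correction, normalization method or scanner. Each array had a median of 0 over its probes. Probe symbols came from the platform annotation and were brought up to date through unique synonyms in RefSeq (GRCh38.p14) (13395 of 24267 probes had a symbol). Probes of a gene were averaged. Medians, quartiles and counts were computed with pandas 2.3.3 in Python 3.11.15. The median was checked on random draws of the arrays' gene values with a known shift added, and the symbol rule and probe averaging on known answers. Quartiles and counts were not checked in this way. With 1 array per comparison no test was made, and the number of arrays limits precision.

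The members and lists were chosen with earlier results of these data known. Named were the 8 highest and 8 lowest members of each set and array, and members past 2-fold on either array or past 0.5 on both. The P stalk, members with several probes and members that are not standard were also named. Of the lists, some extremes were named but not all, and other members were named to describe the set by role. Alternatives were another probe rule, symbols, centring, scaling, membership, probe name series and thresholds.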

Additional observations from a re-analysis of the deposited data

How the results depend on the processing

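Alternatives chosen after seeing the data were leaving out the Y-linked genes, leaving out probes whose names start with opHsV04, and each probe name series alone. Under the other alternatives and the first pair of these, the set medians and the differences between sets kept their sign. With H2 probes alone, the cytosolic median after transfection was 0.027 and the difference between sets -0.036; with opHsV04 probes alone, the mitochondrial medians were -0.18 after depletion and -0.048 after transfection; the cause was not tested. Over all 14 alternatives the difference ranged from -0.29 to -0.17 on the depletion array and from -0.37 to -0.036 on the transfection array. The counts moved with the threshold. At 0.3 the depletion array had 21 cytosolic and 10 mitochondrial genes past it downward, and the transfection array had 17 and 6. At 1 they were 2 and 0 on each array. With H2 probes alone 1 cytosolic and 1 mitochondrial gene were past -0.5 on each array, with H3 probes alone 8 and 1 after depletion and 7 and 1 after transfection, and with opHsV04 probes alone 4 and 0, then 2 and 0. The 2 mitochondrial genes past -0.5 after transfection became 1 with single-probe genes, 0 with each chromosome centred on its own median and 1 with a common spread, and were 1, 1 and 0 in the H2, H3 and opHsV04 series; the cause was not tested. No paired analysis was possible because each comparison has 1 array. Without channel intensities, dim probes could not be told from bright ones.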
